A study of Homo sapiens with 6 samples.

Results

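To examine how the prostate kallikrein locus was marked when LSD1 was inhibited, the H3K4me2 regions that overlap a 100 kb window on chromosome 19 (hg19, 51320000 to 51420000) were taken from the deposited lists. The window holds KLK3 (51358171 to 51364020, plus strand), KLK2 (51376689 to 51383823, plus strand) and KLK4 (51409608 to 51413994, minus strand). Its bounds were set by position, not by any measured value, but earlier results of these data were known when the genes were chosen. The window contained 51 of 355320 listed regions, with 13 of 99997 from vehicle, 18 of 128134 from GSK 4 h and 20 of 127189 from GSK 24 h. H3K4me2 (histone H3 dimethylated on lysine 4, a mark of enhancers and of the borders of active promoters) was measured by ChIP-seq in LNCaP, an androgen-responsive prostate cancer cell line. Cells were kept in 5% charcoal-stripped serum, which is depleted of steroid hormones, for 3 days. The vehicle group was given vehicle without GSK, and the other groups were given GSK2879552, an inhibitor of the H3K4 demethylase LSD1 (KDM1A), for 4 h or 24 h. The sample labels add DHT, a potent androgen, to both GSK groups, whereas the treatment protocol names the inhibitor alone, so an androgen effect and an inhibitor effect cannot be told apart at this androgen-responsive locus. Each of the 3 groups had 2 replicates, and the authors called regions once on both together. Both replicates of a group carry the same barcode in the labels, and whether they were separate cultures or 1 library is not stated. Values thus come without a replicate spread, conditions were set side by side without a test, and intervals cover counting error only.

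The kallikreins are a cluster of secreted serine proteases, and the members at this end of the cluster are classic androgen-induced genes of prostate cells. KLK3 encodes prostate-specific antigen (PSA), which liquefies semen and serves as a blood marker of prostate cancer. KLK2 encodes a close relative that can activate the PSA precursor, and KLK4 encodes a protease that is known from the prostate and from tooth enamel formation. KLK3 and KLK2 are each known to have an enhancer a few kb upstream. In the RefSeq gene order (GRCh38.p14, order only), KLK1, KLK15 and the long non-coding RNA gene LOC105372441 precede KLK3. The pseudogene KLKP1 lies between KLK2 and KLK4.

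The promoters of KLK3 and KLK2 are shown because these paralogs share a long identical stretch next to their starts, close to the edges of the marked regions. The sequences come from RefSeq (GRCh38.p14, plus strand) and end at the last base before each start. They lie at chr19:50854761-50854914 for KLK3 and at chr19:50873279-50873438 for KLK2, in another build than the hg19 positions of the regions. Capitals mark the longest run of bases that is identical in both promoters.
KLK3: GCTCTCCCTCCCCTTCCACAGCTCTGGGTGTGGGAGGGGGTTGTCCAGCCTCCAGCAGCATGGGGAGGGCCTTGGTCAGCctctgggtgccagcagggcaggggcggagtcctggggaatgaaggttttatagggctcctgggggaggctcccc
KLK2: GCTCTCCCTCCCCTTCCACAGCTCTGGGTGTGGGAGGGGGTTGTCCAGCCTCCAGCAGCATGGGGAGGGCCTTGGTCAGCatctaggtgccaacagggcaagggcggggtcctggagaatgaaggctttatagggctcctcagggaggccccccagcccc

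The identical run was 80 bases long and lay 154 to 75 bases before the KLK3 start and 160 to 81 bases before the KLK2 start. Over the 250 bases before the starts, the promoters were 79.2% identical (259 aligned columns). Neither GTAAACA (a forkhead motif, both strands, 2.98% of 35116 RefSeq promoter windows) nor TATAAA (gene strand, 6.80%) was found in the 4 windows of KLK3, KLK2 and KLK4, which has 2 RefSeq starts. Reads lying wholly within the identical run cannot be assigned to one gene. The read length and the handling of such reads are not given in the sources used here, and their part in the values below was not tested.

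The lists were similar in depth, with 9.43 (vehicle), 10.1 (GSK 4 h) and 8.98 (GSK 24 h) tags per kb of effective genome as inferred from the peak values. The level given for a region is its summit height, that is, how many fragments cover the summit in multiples of the number that the same list has on average over the genome. The median height was 11.04, 11.2 and 10.7 in vehicle, GSK 4 h and GSK 24 h, but the top 1% of regions began at 160, 68.0 and 54.4, so that very tall summits were tallest under vehicle. Fragments were shorter in the GSK 4 h list (186 bp) than in the vehicle (221 bp) and GSK 24 h (219 bp) lists, and their part in the differences was not tested. Over all regions matched 1 to 1 with vehicle, the median height ratio was 1.18 for GSK 4 h (log2 shift of 0.24) and 1.12 for GSK 24 h (log2 shift of 0.16). Ratios at the locus are therefore also given after division by these medians.

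Regions lay at all 3 genes in every list, mainly around the KLK3 start, at and before the KLK2 start, inside KLK4 and in a block 10 to 20 kb before KLK3. Heights ranged from 8.64 to 54.2 under vehicle (median 23.0), from 12.8 to 54.2 at GSK 4 h (median 21.5) and from 11.7 to 56.5 at GSK 24 h (median 20.9). The regions covered 7341, 9829 and 9813 bp, or 7.34%, 9.83% and 9.81% of the window. Joining the lists gave 21 separate stretches, of which 11 were marked throughout, 4 at GSK 4 h only, 4 at GSK 24 h only, 1 at both times of GSK, and 1 under vehicle and at GSK 24 h. No stretch was marked in the vehicle list alone. Genome-wide, 15.7% and 14.0% of vehicle regions had no overlap in the GSK 4 h and GSK 24 h lists. In the other direction, 33.0% of GSK 4 h and 32.0% of GSK 24 h regions had no overlap in the vehicle list. These shares count single regions against 1 list at a time. A genome-wide share of joined stretches marked in the vehicle list alone was not computed.

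**Figure D1:**
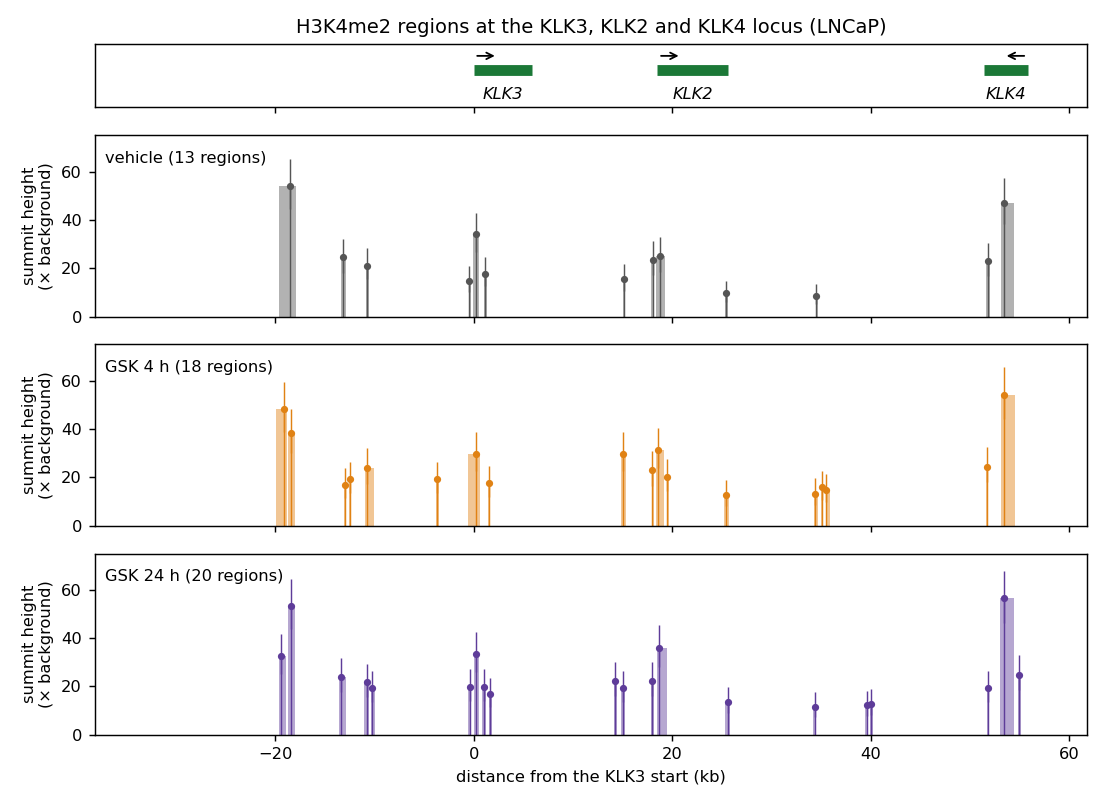
Each row plots the regions of 1 list against the distance from the KLK3 start (kb): boxes span the region, points give the summit height (multiples of the genome-wide background) with its exact Poisson 95% interval, and the top row shows the genes with arrows in the direction of transcription. The tallest regions stand between 18 and 20 kb before KLK3 and inside KLK4 in all 3 lists, with 13, 18 and 20 regions in vehicle, GSK 4 h and GSK 24 h.

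At the KLK3 promoter (1 kb to either side of the start), the levels of the 3 lists differed by less than the counting error. In the vehicle list, the highest summit was covered by 71 fragments, a height of 34.1 (95% interval 26.6 to 43.0). It was covered by 56 fragments in the GSK 4 h list, a height of 29.8 (22.5 to 38.6), and by 66 in the GSK 24 h list, a height of 33.6 (26.0 to 42.7). The 3 intervals overlap, and each contains the other summit heights. The ratio to vehicle was 0.873 for GSK 4 h (95% interval 0.604 to 1.26) and 0.985 for GSK 24 h (0.694 to 1.398). Both ratios lie below the genome-wide medians, and after division by them the values were 0.739 and 0.879. In each list the summit lay inside the gene, 239 bp (vehicle), 204 bp (GSK 4 h) and 213 bp (GSK 24 h) past the start.

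The mark around the KLK3 start was divided differently between the lists. Vehicle and GSK 24 h had 2 separate regions, with summits on either side of the start. The weaker had its summit 465 bp (vehicle, height 14.9) or 360 bp (GSK 24 h, height 19.8) before the start. The unmarked stretch between the 2 regions ran from 259 to 23 bp before the start in the vehicle list, so the start lay inside the downstream region. In the GSK 24 h list it ran from 247 bp before to 32 bp past the start. Both stretches contain all 80 bases of the run shared with KLK2, if the start is taken as the same base in both builds (KLK3 spans 5850 bp in each). In the GSK 4 h list, a single region of 1275 bp covered both sides and the whole run. The share of the promoter zone inside a region was 38.9% under vehicle, 63.7% at GSK 4 h and 49.6% at GSK 24 h. Inside the gene, weak regions followed 1193 bp (vehicle, height 17.8), 1520 bp (GSK 4 h, height 17.5), and 1027 and 1620 bp (GSK 24 h, heights 19.8 and 16.8) past the start.

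On the upstream enhancer side of KLK3 (3 to 5 kb before the start), only the GSK 4 h list held a region. It ran from 51354375 to 51354639, with its summit 3674 bp before the start, and was covered by 36 fragments, a height of 19.1 (13.4 to 26.5). Its fold enrichment was 2.92 and its -log10 q-value 6.54. Among the regions with the local background of the KLK3 promoter (within 5%), the lowest summit that was called had a height of 14.4 under vehicle (30 fragments, 1591 regions) and of 15.3 at GSK 24 h (30 fragments, 1668 regions). These heights lie within the interval of the GSK 4 h summit. Missing records in the vehicle and GSK 24 h lists thus show only that no summit passed the threshold. Whether the levels at the enhancer differed cannot be told, since these lists give no value there. The threshold was taken at the promoter, where the GSK 4 h local background was 8.31 times the genome-wide one, against 6.21 times at the upstream region. A wider zone of 2 to 6 kb before the start gave no further record in any list.

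At KLK2, the promoter height was lowest in the vehicle list. The highest summit reached 24.95 in vehicle (52 fragments, interval 18.6 to 32.7), 31.3 in GSK 4 h (59 fragments, 23.9 to 40.4) and 36.1 in GSK 24 h (71 fragments, 28.2 to 45.6). The intervals of neighbouring values overlap, and those of vehicle and GSK 24 h overlap as well. The ratio to vehicle was 1.26 for GSK 4 h (0.851 to 1.86) and 1.45 for GSK 24 h (0.998 to 2.11), or 1.06 and 1.29 after division by the genome-wide medians. In fold enrichment over the local background the ratios were 1.05 and 1.17. Against all regions matched 1 to 1, the GSK 24 h ratio stood at the 81.3 percentile and the GSK 4 h ratio at the 56.8 percentile.

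As at KLK3, summits lay on both sides of the KLK2 start, here in all 3 lists. The start itself lay inside the downstream region in each list. The upstream region had its summit 450 bp (vehicle, height 23.5), 524 bp (GSK 4 h, height 22.8) and 559 bp (GSK 24 h, height 22.4) before the start. The unmarked stretch ran from 311 to 146 bp before the start in vehicle, from 367 to 115 bp in GSK 4 h and from 383 to 61 bp in GSK 24 h. It measured 166, 253 and 323 bp. Of the run shared with KLK3, 15 bases (vehicle), 46 bases (GSK 4 h) and all 80 bases (GSK 24 h) lay in the unmarked stretch, to within the 6 bp by which the gene spans of the sources differ. The share of the KLK2 promoter zone inside a region was 64.3% under vehicle, 52.8% at GSK 4 h and 65.6% at GSK 24 h. It was thus lowest at GSK 4 h, unlike at KLK3. Only GSK 4 h had a further region in this zone, with its summit 985 bp past the start (height 20.2).

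**Figure D2:**
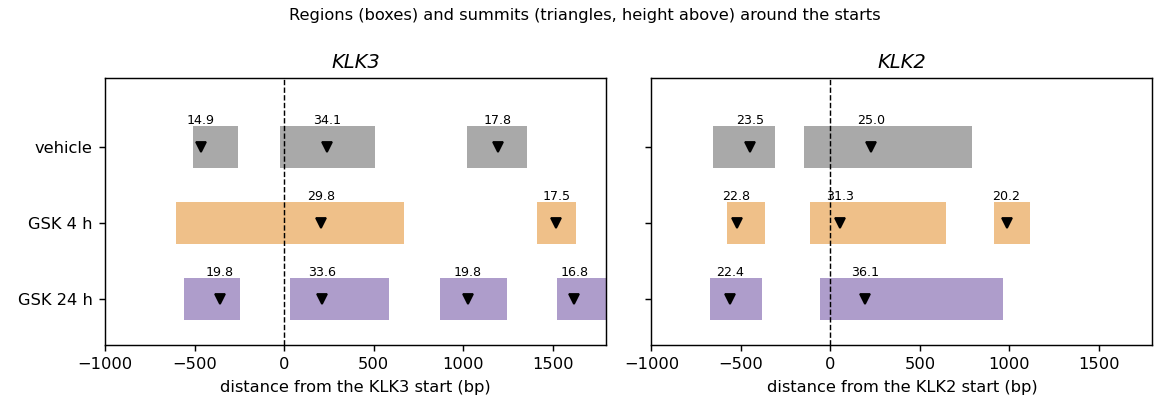
Boxes show the regions of each list by distance from the KLK3 start (left) and the KLK2 start (right) in bp, triangles mark summits with their heights (multiples of the genome-wide background), and the dashed line is the start. A gap lies before or at the start in every row but GSK 4 h at KLK3, where 1 region of 1275 bp spans it.

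The upstream side of KLK2 (3 to 5 kb before the start) gave the largest height ratio among the zones compared. The highest summit was 15.4 in vehicle (32 fragments, 10.5 to 21.7), 29.8 in GSK 4 h (56 fragments, 22.5 to 38.6) and 22.4 in GSK 24 h (44 fragments, 16.3 to 30.0). The vehicle and GSK 4 h intervals do not overlap, and GSK 24 h overlaps both. The GSK 4 h ratio was 1.94 (1.23 to 3.09), at the 93.8 percentile of all matched regions, and 1.64 after division by the genome-wide median. The GSK 24 h ratio was 1.46 (0.904 to 2.37), at the 81.6 percentile, and 1.30 after division by the median. At 24 h this level came from a second region with its summit 4237 bp before the start, which had no overlap in the vehicle list and is not a matched pair. The region shared by all lists had its summit 3403 bp (vehicle), 3500 bp (GSK 4 h) and 3457 bp (GSK 24 h) before the start. Its GSK 24 h height of 19.3 was 1.26 times that of vehicle (0.766 to 2.08), at the 65.6 percentile of all matched regions. Covered length in this zone was 221, 475 and 727 bp in vehicle, GSK 4 h and GSK 24 h. With 4 zones compared in 2 lists, 1 of 8 ratios had an interval that leaves out 1.

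KLK4 carried the strongest region at any of the 3 genes, inside the gene and not at the start used here. RefSeq has 2 starts for KLK4, and its span there is 658 bp longer (5045 against 4387 bp), so distances hold for one start only. The summit lay 2422 bp (vehicle), 2353 bp (GSK 4 h) and 2415 bp (GSK 24 h) past the KLK4 start, in regions of 1286, 1393 and 1346 bp. Heights were 47.0 in vehicle (98 fragments, 38.2 to 57.3), 54.2 in GSK 4 h (102 fragments, 44.2 to 65.8) and 56.5 in GSK 24 h (111 fragments, 46.4 to 68.0). All 3 intervals overlap. The ratios to vehicle were 1.15 (0.865 to 1.54) and 1.20 (0.907 to 1.59), at the 47.2 and 59.5 percentiles of all matched regions. After division by the genome-wide medians they were 0.976 and 1.07, so the direction at 4 h turned with the scaling. Taller regions made up 9.33% of the vehicle list, 3.52% at GSK 4 h and 0.791% at GSK 24 h, beside the lower upper tails of the GSK lists given above.

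Within 1 kb of the KLK4 start, only GSK 24 h had a summit. This region ran from 51412959 to 51413257, 907 bp inside the gene, with 49 fragments and a height of 24.9 (18.4 to 33.0). It lay 373 bp from the end of the vehicle region of the gene body. The lowest summits called at the local background of the main KLK4 region (within 5%) were 14.4 in vehicle and 17.0 in GSK 4 h. Both lie below the interval of the GSK 24 h summit but carry counting error of their own. For a GSK 4 h height of 17.0 (32 fragments) the interval was 11.6 to 24.0, which overlaps it. Missing records in the vehicle and GSK 4 h lists show only that no summit passed the threshold. A second, weaker region near the 3′ end of KLK4 had heights of 23.0 (vehicle), 24.4 (GSK 4 h) and 19.3 (GSK 24 h), with ratios of 1.06 (0.693 to 1.62) and 0.839 (0.534 to 1.31).

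**Figure D3:**
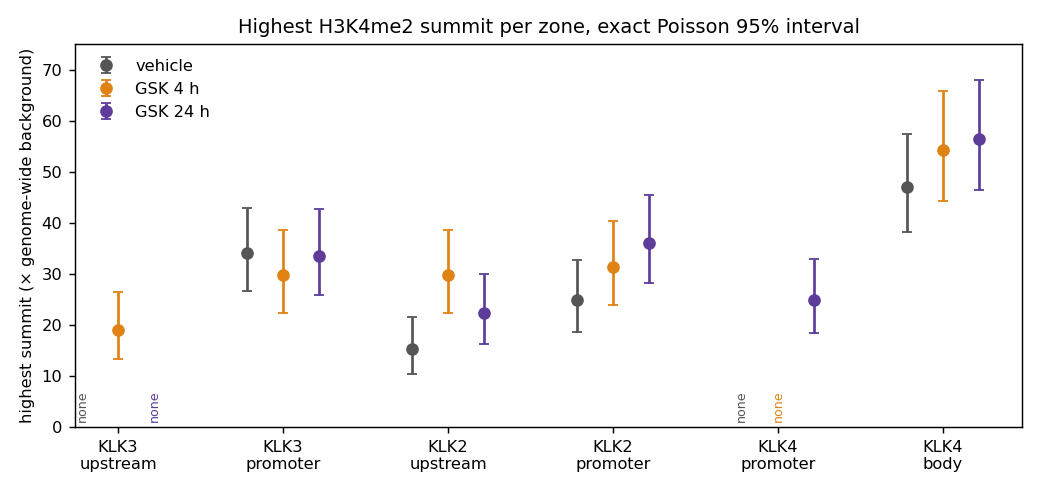
Points give the highest summit in each zone for the 3 lists (multiples of the genome-wide background) with exact Poisson 95% intervals, and "none" marks zones where a list held no summit. KLK3 promoter heights lie between 29.8 and 34.1, KLK2 upstream heights between 15.4 and 29.8, and KLK4 body heights between 47.0 and 56.5.

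Outside the 3 genes, the far end of the block before KLK3 was as tall as KLK4. The vehicle list had a single region of 1646 bp there, from 51338617 to 51340262, with a height of 54.2 (44.7 to 65.2). Both GSK lists had 2 regions in its place, with heights of 48.4 and 38.3 in GSK 4 h and of 32.6 and 53.4 in GSK 24 h. The highest summit was the one nearer to KLK3 in GSK 24 h and the farther one in GSK 4 h, and the 3 highest summits lay within 618 bp. The rest of the block, nearer to KLK3, was lower. Heights there were 24.5 and 21.1 in vehicle, 17.0, 19.1 and 23.9 in GSK 4 h, and 23.9, 21.9 and 19.3 in GSK 24 h. Matched to vehicle, 2 of these regions had GSK 4 h ratios of 0.695 (0.432 to 1.10) and 1.13 (0.731 to 1.76). Their GSK 24 h ratios were 0.977 (0.643 to 1.48) and 1.04 (0.664 to 1.61). Between KLK2 and KLK4 all regions were low. The region marked in every list there had heights of 8.64 (vehicle), 13.3 (GSK 4 h) and 11.7 (GSK 24 h), and regions present in 1 GSK list only lay between 12.2 and 15.9. The region at the 3′ end of KLK2 had heights of 9.60, 12.8 and 13.7 in the same order.

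The locus ranked high by broad signal and, except at its tallest regions, low by the sharpness of its peaks. From the peak values, the number of tags in the 10 kb around a summit could be recovered, and it is given here relative to the genome-wide density. At the KLK3 promoter, 683 tags (vehicle), 841 (GSK 4 h) and 708 (GSK 24 h) lay within 10 kb, which is 7.24, 8.31 and 7.89 times the genome-wide density. At the KLK2 promoter the densities were 6.82, 8.14 and 8.47 times, and at the main KLK4 region they were 7.80, 8.76 and 8.43 times. Relative to vehicle, the density at the KLK2 promoter was 1.19 times for GSK 4 h (1.08 to 1.33) and 1.24 times for GSK 24 h (1.12 to 1.38), both intervals above 1. At the KLK3 promoter it was 1.15 times (1.04 to 1.27) and 1.09 times (0.979 to 1.21), and at the main KLK4 region 1.12 times (1.02 to 1.24) and 1.08 times (0.975 to 1.20), so that the GSK 24 h intervals included 1. Among the matched locus regions, the largest GSK 24 h ratio was 1.38, at a region before KLK3. After division by the median density ratio of all matched regions, the KLK2 promoter stood at 1.13 at both times (1.02 to 1.26 each). The KLK2 upstream side, whose 10 kb span overlaps that of the promoter, stood at 1.18 (1.05 to 1.32) and 1.05 (0.933 to 1.18). The KLK3 promoter then stood at 1.09 (0.984 to 1.21) and 0.994 (0.893 to 1.11) and the main KLK4 region at 1.07 (0.965 to 1.18) and 0.986 (0.890 to 1.09), all with 1 inside the interval and with the direction turned at 24 h. The median density over all regions of a list was 1.56, 1.53 and 1.59, and every region at the locus exceeded the median of its list. The lowest density at the locus, 2.69 times in the vehicle list, belonged to the 3′ end of KLK2.

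Fold enrichment, which compares a summit with these 10 kb, ranked most of the same regions low. Height exceeded the median of the list for 11 of 13 vehicle, 18 of 18 GSK 4 h and 20 of 20 GSK 24 h regions. Fold enrichment was below the median for 11, 16 and 18 regions in the same order. The exceptions in each list were the main KLK4 region and the tallest region before KLK3. By fold enrichment, KLK4 stood at the 63.2 (vehicle), 67.1 (GSK 4 h) and 78.4 (GSK 24 h) percentile, and the region before KLK3 at 66.9, 64.3 and 73.1. The vehicle KLK3 promoter summit stood at the 86.3 percentile by height and at the 37.1 percentile by fold enrichment (4.47), and the KLK2 promoter summit at 79.9 and 12.2 (fold enrichment 3.48). Fold enrichment and height come from the same fragments, so this is a description of the locus and not a second measurement.

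**Figure D4:**
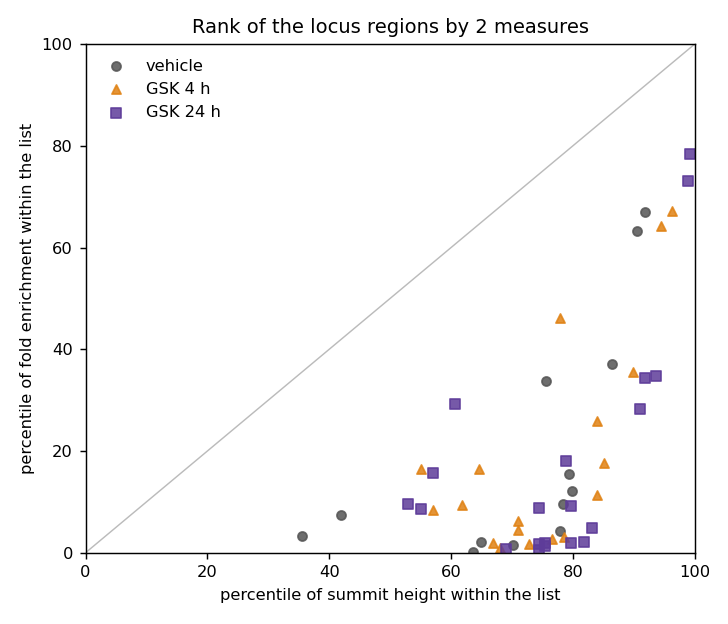
Each point is 1 region of the locus, placed by its percentile of summit height (x axis) and of fold enrichment (y axis) among all regions of its list, and the grey line marks equal ranks. All 51 regions lie below the line, and the 2 vehicle regions with the lowest heights are at the 35.5 and 42.0 percentiles by height.

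Set beside the rest of the genome, height ratios at the locus lay within the spread of all matched regions. For GSK 4 h, 9 locus regions could be matched 1 to 1 with vehicle (regions split or joined in one list, the KLK3 promoter among them, could not), and 0 of them were at least 1.5 times lower (11.1% of 67411 matched regions genome-wide) and 2 at least 1.5 times higher (24.2%). Their median log2 ratio was 0.20, against 0.24 for all matched regions. For GSK 24 h, 12 regions were matched, 0 were at least 1.5 times lower (10.1% of 68815) and 0 at least 1.5 times higher (15.8%). Their median log2 ratio was 0.21, against 0.16. The 2 past the fold at 4 h were the KLK2 upstream region and the low region between KLK2 and KLK4, whose ratio of 1.54 had an interval of 0.806 to 2.99. Local density was above vehicle in 8 of 9 pairs for GSK 4 h (66.7% of all matched regions) and in 12 of 12 for GSK 24 h (71.9%). The median density ratio was 1.17 (1.05 genome-wide) at 4 h and 1.14 (1.096 genome-wide) at 24 h. Neighbouring 10 kb spans share tags, so these pairs are not independent.

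**Figure D5:**
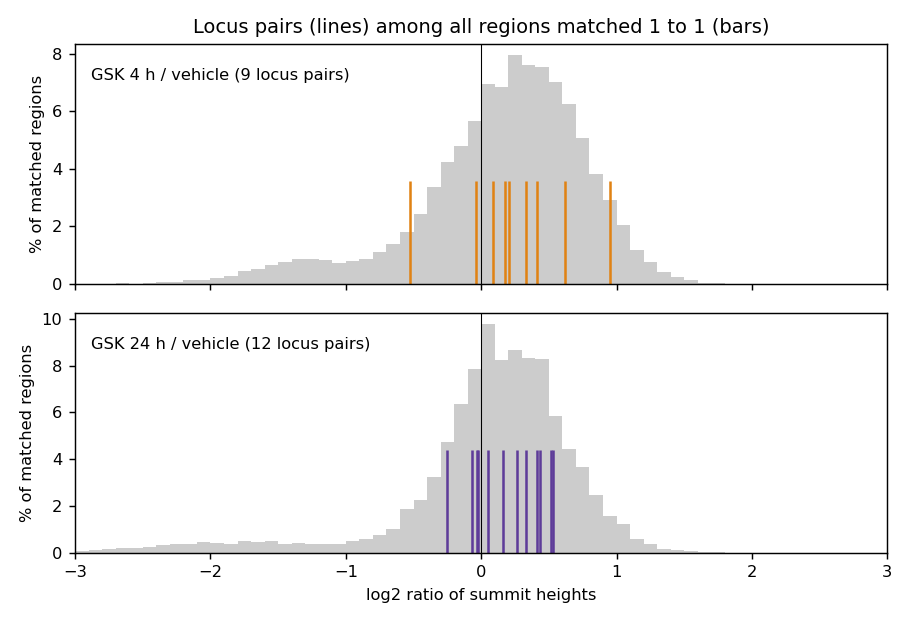
Grey bars give the distribution of the log2 height ratio to vehicle over all regions matched 1 to 1 (percent of matched regions per 0.1 step), and coloured lines the pairs at the locus. Lines for GSK 4 h run from -0.53 to 0.95 and those for GSK 24 h from -0.25 to 0.53, within the spread of the bars.

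Regions without a counterpart were about as frequent at the locus as elsewhere. Of the vehicle regions, 1 of 13 had no overlap in the GSK 4 h list (15.7% genome-wide) and 0 of 13 in the GSK 24 h list (14.0%), so that 92.3% (Wilson 95% interval 66.7 to 98.6) and 100% (77.2 to 100) were shared. In the other direction, 6 of 18 GSK 4 h regions (33.0% genome-wide) and 6 of 20 GSK 24 h regions (32.0%) had no overlap in the vehicle list. Between the GSK lists, 4 of 18 GSK 4 h regions had no overlap at 24 h (21.8%) and 5 of 20 GSK 24 h regions had none at 4 h (22.3%). Of the GSK regions without a vehicle overlap, 5 at 4 h and 4 at 24 h lay less than 1 kb from a vehicle region. Their heights were modest, from 14.9 to 20.2 in GSK 4 h and from 12.2 to 24.9 in GSK 24 h. The others were the KLK3 upstream region at 4 h, 3024 bp away, and 2 weak regions between KLK2 and KLK4 at 24 h, 4725 and 5210 bp away. No genome-wide share was computed for these distances, so whether such closeness is particular to the locus was not tested.

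The number of regions was high for a window of this size. Among 26896 windows of 100 kb that held a region in any list, the locus stood at the 98.0 (vehicle), 99.5 (GSK 4 h) and 99.9 (GSK 24 h) percentile by number of regions. Within the 553 such windows of chromosome 19, which is rich in regions, the percentiles were 86.8, 96.7 and 99.1. The gain over vehicle was 5 regions in GSK 4 h and 7 in GSK 24 h. At least as many were gained by 3.56% and 0.368% of all windows, whose vehicle median was 3 regions against 13 at the locus. Windows of equal vehicle count were not compared. In proportion, the locus had 1.38 (GSK 4 h) and 1.54 (GSK 24 h) times as many regions as in vehicle, against 1.28 and 1.27 over the whole lists. Covered length was 1.34 times that of vehicle at both times, against 1.20 and 1.26. With the lists reduced to equal length (13, 16 and 18 regions at the locus), its gain was 3 and 5 regions, and 4.08% and 0.285% of 25959 windows gained at least as many. The size of the gain depended on the threshold and on joining. At a -log10 q-value of at least 5 the locus held 8, 16 and 17 regions, a gain of 8 and 9, and at 10 it held 7, 7 and 6. Genome-wide shares at these thresholds are not given here, so whether such gains are particular to the locus was not tested. With records within 1 kb joined, it held 10, 11 and 11 regions.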

How the data were processed

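H3K4me2 ChIP-seq was carried out by the authors in LNCaP cells (6 samples, 3 groups of 2 replicates, with 1 pooled list a group). The submitters' processing notes name BWA 0.7.2-r351, SAMtools 0.1.18, MACS2 2.0.10.20131216 and hg19, without settings. The deposited lists carry no header and were read in narrowPeak column order. For each region the authors gave the fold enrichment of the summit (a ratio over local background), the p-value and q-value as -log10 (lowest q 1.32 to 1.34), and a display score, which is not used here.

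Records outside chromosomes 1 to 22, X and Y (1.06% to 1.27%) were left out. Summit pileup and local background were recovered from fold enrichment and p-value (Python 3.11.15, scipy 1.17.1). A whole-number pileup was found within 0.001 of the -log10 p-value for all but 2 vehicle regions, and the step was tested on simulated data. The genome-wide background was the lowest value of a list, and the shortest record was taken as the fragment length. Intervals are exact Poisson for heights, exact conditional binomial for height ratios and Wilson for shares, all at 95%. Percentiles are the percent of regions with a lower value.

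The genes, zones and lists were chosen with earlier results of these data known. The text names the 3 genes with the regions at their promoters, bodies and upstream sides, by gene positions given with the locus. Other androgen-responsive genes and genes of a similar pattern were not analysed here, since no hg19 annotation was used. The height ratios at the KLK2 upstream side and in KLK4, the density ratios divided by the genome-wide median and the windows with lists of equal length were added after seeing the data. Motifs were sought in RefSeq promoter windows (GRCh38.p14) found by gene symbol for all 3 genes, and windows were aligned with biopython 1.88. A further motif search is not reported here. Alternatives were other -log10 q-value thresholds, overlaps, list lengths, joining of records, locus extents, scalings, zones and rankings.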

Additional observations from a re-analysis of the deposited data

How the results depend on the processing

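No paired analysis was possible because regions were called on both replicates of a group together, which also means that no replicate could be left out. Of 90 values recomputed under another setting, 63 stayed within their counting interval or within 1.5 times the reported count, and 27 moved. Chosen after seeing the data, 16 values of the height ratios at the KLK2 upstream side and in KLK4 and 6 density ratios divided by the genome-wide median stayed within their interval. At a -log10 q-value of at least 5, the vehicle list held 8 regions against 16 (GSK 4 h) and 17 (GSK 24 h). At 10 the lists held 7 (vehicle), 7 (GSK 4 h) and 6 (GSK 24 h), with a GSK 24 h covered length of 4796 bp. These counts are for the locus alone, without a genome-wide share at the same threshold. With records within 1 kb joined, both GSK lists held 11 regions. From 10 kb before KLK3 to 10 kb past the KLK4 start, the vehicle regions covered 4810 bp. With 50% of both regions overlapping, 38.5% of vehicle regions were shared with GSK 4 h and 27.8% of GSK 4 h regions with vehicle. At a -log10 q-value of at least 10, 71.4% of vehicle regions were found in GSK 24 h and 100% in the other direction. These shares too are for the locus alone. No genome-wide share was computed at the same settings, so whether they are particular to the locus was not tested. Ranked by fold enrichment, the KLK3 promoter stood at the 37.1 (vehicle), 11.3 (GSK 4 h) and 34.4 (GSK 24 h) percentile, the KLK2 promoter at 12.2, 17.7 and 34.8, and the main KLK4 region at 63.2, 67.1 and 78.4. Ranked by -log10 p-value, the KLK3 promoter stood at 80.1, 65.1 and 81.2 and the KLK2 promoter at 62.1, 70.1 and 83.3. The cause of these shifts was not tested, except that stricter thresholds and overlaps leave fewer regions. Scaling by the median ratio of matched regions took the KLK4 ratio at 4 h from 1.15 to 0.976, within its interval. The KLK3 upstream side and the KLK4 promoter gave no ratio under any setting, since vehicle had no summit there. Depth limits the heights: each promoter ratio had a 95% interval that includes 1.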
